A study of Ceratopteris richardii with 9 samples.

Results

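The ACR4-related receptor kinases of the fern Ceratopteris richardii are 3 transcripts of the 28952 in the deposited table, chosen by the transcript numbers that label this family in the study's gene trees. CriCR4A (transcript107875) and CriCR4B (transcript68964) are the fern copies of ACR4, and CriCCR3/4 (transcript28691) belongs to the related CCR3/4 clade. All 3 were in the table, and all 3 were tested. RNA was sequenced from sporophytes of the Hn-n genotype at 45 days after fertilization, dissected into root tip (RT), differentiated root without the tip (DR, labelled DT) and shoot (SH, leaves and stem), with 3 biological replicates per segment and 9 libraries in all. No treatment was compared, and plants of every segment were grown on C-Fern medium with sucrose. Each library pooled tissue from several plants, the RT was cut below the visible vascular strands, and the SH held young leaves together with the main stem, so that its values average over these tissues.

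ACR4 is a membrane receptor-like kinase of the CRINKLY4 family, named after a maize mutant with disturbed epidermis. In Arabidopsis it acts in the epidermis and in the root tip, where with the receptor CLAVATA1 and the peptide CLE40 it limits the pool of columella stem cells and, in the pericycle, restricts formative divisions. The CCR proteins carry the same type of extracellular repeats and a kinase domain and are less well understood. The fern root differs from that of Arabidopsis in that it grows from an apical cell, which also gives rise to the root cap initial.

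Total counts per library ranged from 20065742 to 27376654. Levels are given as CPM, counts divided by a TMM-corrected library size, and are compared between segments and not between transcripts, since lengths were not used. For 8 transcripts set as root meristem markers here, CriWUL, SCL28 and 6 D-type cyclins (CYCD), the summed level was 263 to 343 CPM in the RT libraries, 22.4 to 46.8 in the DR and 168 to 179 in the SH, and the only one without counts was the CYCD transcript42446, in 2 SH libraries. Most of the sum came from CYCD. The most abundant of them, transcript68371, averaged 143 CPM in the RT and 119 in the SH, so the sum is not specific to the root. In bulk tissue, fewer cells of a type and less RNA per cell cannot be told apart.

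The fern ACR4 copies shared one order of levels, highest in the RT, intermediate in the SH and lowest in the DR, and each neighbouring step in that order passed the test. CriCCR3/4 was higher at the RT than at the SH, while its DR libraries spread over the whole range of the other segments. Of the 3 receptor kinases, 2 had more counts at the RT than at the DR, with an adjusted p of at most 0.05, where 29.9% of all transcripts did. Between RT and SH, 3 of 3 were higher at the RT (29.9% of all transcripts), and between DR and SH, 2 of 3 were lower at the DR (30.8% of all transcripts) and 0 higher (27% of all transcripts). The members' median log2 fold changes in these comparisons were 2.00, 0.90 and -1.24, against medians over all transcripts of 0.07, 0.11 and -0.08. The 3 comparisons share libraries, so their values are not independent of each other.

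CriCR4B had 36.0, 48.3 and 71.9 CPM in RT replicates 1 to 3, from 901, 1237 and 1935 counts. In the DR replicates it had 15.1, 11.9 and 8.55 CPM, from 410, 322 and 212 counts. The SH replicates were at 27.1, 27.1 and 29.4 CPM, from 530, 631 and 685 counts. All RT libraries therefore lay above all SH libraries, and all SH libraries above all DR libraries. Such a separation was common in the table, found for 32.8% of transcripts with the RT above the DR, 33.5% with the RT above the SH and 36.9% with the DR below the SH.

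The RT exceeded the DR for CriCR4B by 2.14 on the log2 scale (standard error 0.27, 95% interval 1.52 to 2.75, adjusted p = 0.000124 by the quasi-likelihood test of edgeR), a 4.40-fold difference. This was more than the difference of 92.1% of all transcripts. It was past 2 on the log2 scale, the fold change threshold of the study's gene ontology analysis, as for 8.62% of all transcripts. That analysis compared a segment with both others, and for its ortholog genes the study filtered by adjusted p alone. Over the SH the RT was higher by 0.90 (standard error 0.26, interval 0.31 to 1.49, adjusted p = 0.0144), or 1.87-fold. Between the DR and the SH the difference was -1.24 (standard error 0.27, interval -1.84 to -0.64, adjusted p = 0.00306), so that the SH held 2.35 times the DR level. All 3 differences kept their direction and an adjusted p of at most 0.0461 with every alternative setting and with each library left out.

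CriCR4A had 14.9, 21.7 and 24.6 CPM in RT replicates 1 to 3, from 372, 557 and 663 counts. Its DR replicates were at 6.02, 5.28 and 3.99 CPM, from 164, 143 and 99 counts. The SH replicates held 12.6, 12.9 and 13.7 CPM, from 247, 300 and 319 counts. As for CriCR4B the segments did not overlap, although RT replicate 1 lay only just above the highest SH library, with overlapping counting intervals of 13.4 to 16.4 and 12.2 to 15.3 CPM.

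**Figure D1:**
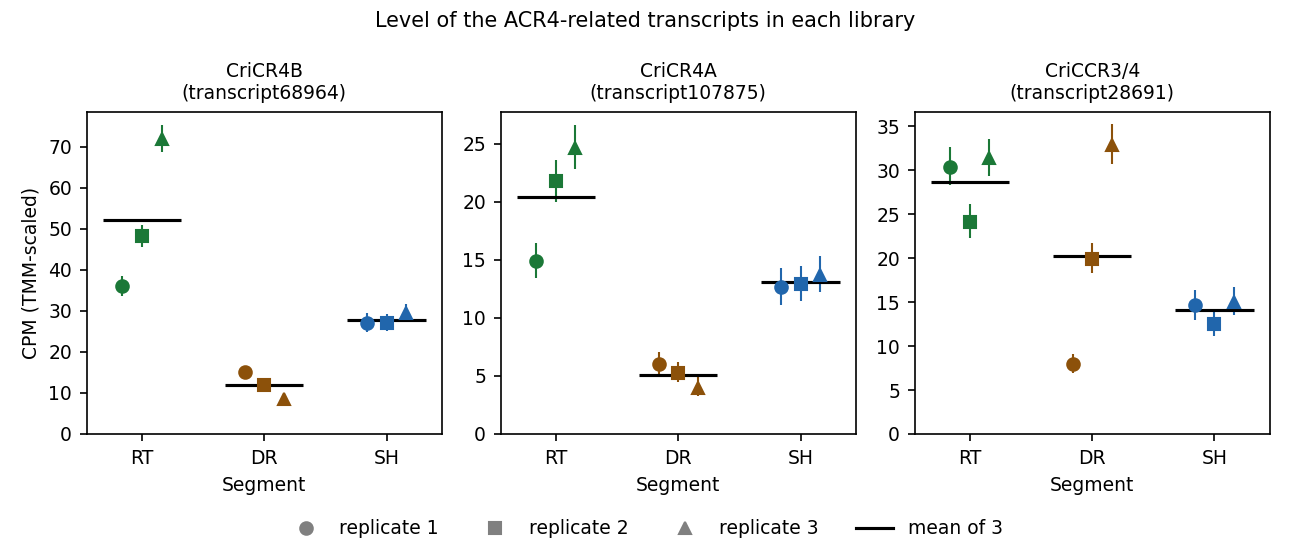
CPM of each receptor kinase transcript (vertical axes, starting at 0) in the 9 libraries by segment, with exact 95% counting intervals as thin bars and the segment mean as a line. CriCR4B and CriCR4A are ordered RT, SH, DR without overlap, while the DR libraries of CriCCR3/4 run from 7.97 to 32.9 CPM.

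For CriCR4A the RT exceeded the DR by 2.00 on the log2 scale (standard error 0.23, 95% interval 1.49 to 2.51, adjusted p = 6.22e-05 by the quasi-likelihood test of edgeR). The unrounded value lay just under 2, so between RT and DR CriCR4A fell short of the study's gene ontology threshold, which CriCR4B passed there. Over the SH neither copy reached 2. Between RT and DR, single libraries decided on which side of 2 each copy lay. CriCR4A was past it without RT replicate 1 (2.18), DR replicate 1 (2.14) or DR replicate 2 (2.02), and with upper-quartile factors (2.04). CriCR4B fell short of it without RT replicate 3 (1.81) or DR replicate 3 (1.95). The DR was below the SH by a log2 fold change of -1.36 (standard error 0.23, interval -1.86 to -0.85, adjusted p = 0.000641), or 2.56-fold lower. The excess of the RT over the SH was 0.64 (standard error 0.22, interval 0.15 to 1.14, adjusted p = 0.0296), or 1.56-fold. That last call was lost without SH replicate 1 (0.62, adjusted p = 0.08), SH replicate 2 (0.63, adjusted p = 0.0754), SH replicate 3 (0.68, adjusted p = 0.0633), RT replicate 2 (0.59, adjusted p = 0.0791) or RT replicate 3 (0.51, adjusted p = 0.0801), and over all alternatives its adjusted p ranged from 0.00132 to 0.0801.

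The deposited counts of CriCR4A departed from whole numbers by more than 0.05 counts in 3 of the 9 libraries, and by more than 1e-06 counts in 8 of them, while those of CriCR4B and CriCCR3/4 were whole in all 9. kallisto divides a read between transcripts that match it equally well, which gives such decimals. The table does not record how many reads were divided or with which transcript, and the part of this in the values of CriCR4A was not tested.

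CriCCR3/4 had 30.4, 24.2 and 31.4 CPM in RT replicates 1 to 3, from 761, 619 and 844 counts. The SH replicates were at 14.6, 12.6 and 15.0 CPM, from 286, 292 and 350 counts, all below the RT. In the DR the replicates stood at 7.97, 19.9 and 32.9 CPM, from 217, 540 and 816 counts. DR replicate 1 was thus the lowest of all 9 libraries and DR replicate 3 the highest, and the DR overlapped both other segments.

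The RT exceeded the SH for CriCCR3/4 by 1.03 on the log2 scale (standard error 0.40, 95% interval 0.14 to 1.91, adjusted p = 0.0483 by the quasi-likelihood test of edgeR), or 2.04-fold. This call stood close to the threshold. It was lost without SH replicate 1 (1.05, adjusted p = 0.101), SH replicate 2 (0.95, adjusted p = 0.126), SH replicate 3 (1.08, adjusted p = 0.0917), DR replicate 2 (1.03, adjusted p = 0.0651), RT replicate 1 (0.98, adjusted p = 0.095), RT replicate 2 (1.13, adjusted p = 0.0607) or RT replicate 3 (0.99, adjusted p = 0.103). With RLE scaling factors in edgeR the adjusted p was 0.0509 and with limma voom, the method of the study, 0.0551. Over all alternatives it ranged from 0.000878 to 0.126. The lowest value came from edgeR with only the RT and SH libraries fitted, and without DR replicate 1 it was 0.00203. The main model shares 1 estimate of the spread over all segments, the DR included. No comparison of the DR passed the test for CriCCR3/4. The RT exceeded the DR by 0.50 (interval -0.38 to 1.38, adjusted p = 0.301) and the DR the SH by 0.53 (interval -0.36 to 1.41, adjusted p = 0.278), and these intervals include both no difference and differences above 1 on the log2 scale.

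Both DR comparisons of CriCCR3/4 turned on which library was included. Without DR replicate 3 the RT exceeded the DR by 1.04 (adjusted p = 0.0283, against a range up to 0.685 over all alternatives), and the difference between DR and SH was -0.01 (adjusted p = 0.979). Without DR replicate 1 the RT exceeded the DR by only 0.12 (adjusted p = 0.685), and the DR exceeded the SH by 0.91 (adjusted p = 0.00729, where the range over all alternatives reached 0.979).

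**Figure D2:**
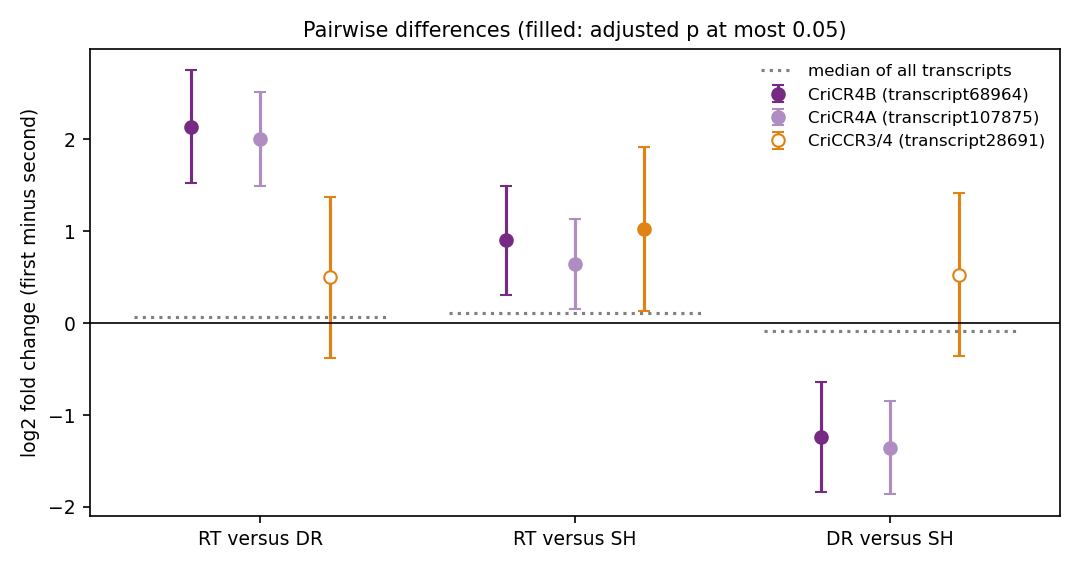
Log2 fold change (vertical axis, first segment minus second) of each receptor kinase in the 3 pairwise comparisons, with 95% intervals from edgeR and the median over all transcripts as a dotted line. Filled points passed an adjusted p of 0.05: CriCR4B and CriCR4A in all 3 comparisons, CriCCR3/4 between RT and SH, with its interval down to 0.14.

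The spread between replicates differed by segment. In the SH the coefficient of variation was 4.81% for CriCR4B and 4.30% for CriCR4A, close to the 4.05% and 5.92% that counting alone gives. In the RT it was 35.1% for CriCR4B and 24.6% for CriCR4A, against 2.85% and 4.47% from counting, and in the DR 27.5% and 20.1%, against 5.85% and 8.79%. The root libraries thus varied by far more than counting error for both ACR4 copies. Among transcripts with at least 1 CPM, the median coefficient of variation was 18.9% among RT, 15.4% among DR and 12.9% among SH libraries, so that spread was wider in the root segments over the table as a whole. The contrast was larger for the ACR4 copies. The CriCR4B value exceeded that of 81.3% of these transcripts among RT, 73.3% among DR and 11.2% among SH libraries. For CriCR4A the shares were 65.1%, 60.9% and 9.21%.

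CriCCR3/4 showed another distribution of its spread. Its coefficient of variation was 13.7% among RT, 61.5% among DR and 9.45% among SH libraries. The DR value exceeded that of 95.1% of the 22359 transcripts at 1 CPM or more in that segment, and counting accounted for 5.06%. Over all 9 libraries the biological coefficient of variation estimated by edgeR was 34.9% for CriCCR3/4, 24.5% for CriCR4B and 21.7% for CriCR4A, against a median of 21.6% over transcripts with at least 1 CPM.

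**Figure D3:**
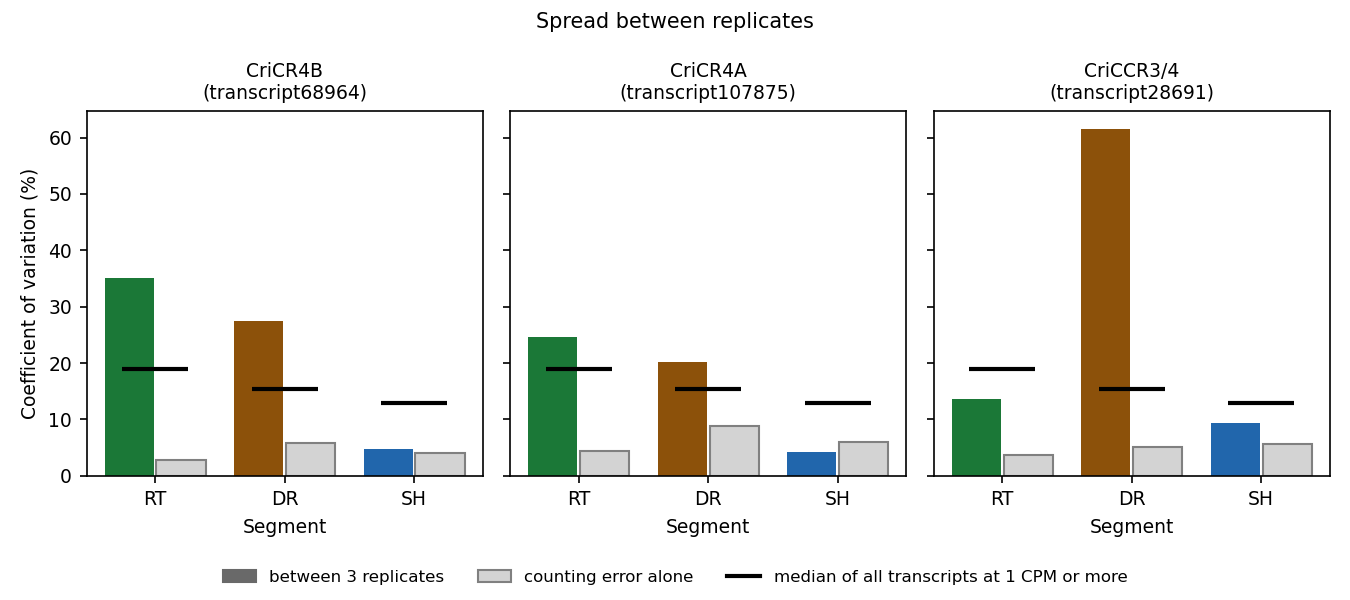
Coefficient of variation in percent (vertical axis) between the 3 replicates of each segment for the 3 receptor kinases, beside the part that counting error alone gives (grey) and the median of all transcripts at 1 CPM or more (black line). CriCCR3/4 in the DR stands out at 61.5%, and both ACR4 copies are near counting error in the SH.

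Within each segment, CriCR4A and CriCR4B ranked the replicates alike. Replicate 3 was highest and replicate 1 lowest in the RT and in the SH, for both transcripts. In the DR replicate 1 was highest and replicate 3 lowest, so the order was shared in 3 of 3 segments. In the SH this order lay within counting error and is not read. Counting intervals of SH replicates 1 and 3 overlapped for CriCR4B (24.8 to 29.5 and 27.3 to 31.7 CPM). They also overlapped for CriCR4A (11.1 to 14.3 and 12.2 to 15.3 CPM). The order over all segments, the SH included, was shared with CriCR4B by 1.62% of the 23293 other transcripts with a mean of at least 1 CPM. The deviations from the segment means on log2(CPM + 0.5) correlated across the 9 libraries with r = 0.955 between the ACR4 copies, a value that 0.438% of those transcripts reached with CriCR4B, and with r = -0.541 and r = -0.557 between CriCCR3/4 and CriCR4B or CriCR4A. These coefficients describe 9 libraries of which each set of 3 shares a mean, and carry no test. Over the whole table, deviations of libraries from different segments correlated in both directions. The extremes were r = 0.385 between DR replicate 3 and RT replicate 1 and r = -0.411 between DR replicate 1 and RT replicate 1. Shoot and root libraries also correlated, with r = 0.28 between SH replicate 2 and RT replicate 3 and r = -0.263 between SH replicate 2 and RT replicate 1.

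SCL28 is a GRAS transcript known in Arabidopsis for a role in the cell cycle of the root meristem. In the RT and the DR it ranked the replicates in the same order as the ACR4 copies. The order in the SH was also the same and, as for the ACR4 copies, is not read. SCL28 had 19.9, 36.5 and 37.2 CPM in RT replicates 1 to 3, 1.65, 0.702 and 0.524 in the DR, and 7.57, 8.00 and 8.42 in the SH. The 6 CYCD transcripts together had 240 (replicate 1), 281 and 303 CPM in the RT and 45.0, 30.9 and 21.7 CPM in the DR, in that same order, and 171, 160 and 168 CPM in the SH, in another. CriWUL, the fern WUS-clade WOX gene, was highest in RT replicate 1, at 3.75 CPM against 2.54 and 2.94 in replicates 2 and 3. SCL28 and the CYCD sum thus ranked the root libraries as the ACR4 copies did, and CriWUL ranked them otherwise. Total counts had that order too, with 20065742, 23955590 and 26609147 in RT replicates 1 to 3 and 24727423, 24556819 and 22767182 in the DR. TMM factors were 1.2477, 1.0697 and 1.0112 in the RT and 1.1012, 1.1029 and 1.0888 in the DR. The rankings by SCL28, the CYCD sum and CriWUL were not set against counting error. CriWUL was low throughout, at 3.75 CPM or less. SCL28 was low in the DR and nearly level between RT replicates 2 and 3, so small steps in these orders are not read. The part of these markers, of total counts or of scaling in the spread was not tested.

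**Figure D4:**
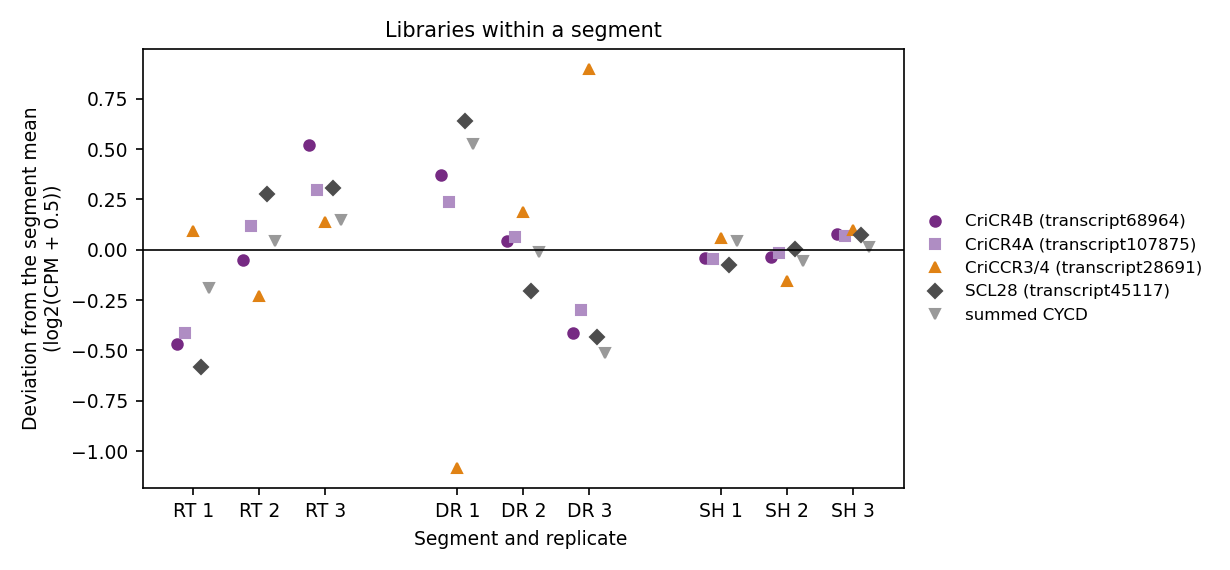
Deviation of each library from its segment mean on log2(CPM + 0.5) (vertical axis) for the 3 receptor kinases, SCL28 and the 6 CYCD transcripts summed. CriCR4A, CriCR4B, SCL28 and the CYCD sum are all above the mean in DR replicate 1 and below it in RT replicate 1 and DR replicate 3, while CriCCR3/4 runs from -1.08 to 0.90 in the DR in the opposite order.

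The ratio of CriCR4B to CriCR4A counts within a library does not depend on scaling between libraries, and its size is not read because it holds the unknown ratio of lengths. It was 2.42, 2.22 and 2.92 in RT replicates 1 to 3, 2.50, 2.25 and 2.14 in the DR, and 2.15, 2.10 and 2.15 in the SH. On the log2 scale it averaged 1.32 ± 0.20 for RT, 1.20 ± 0.11 for DR and 1.09 ± 0.02 for SH libraries (SD, n = 3 each). A difference between segments was not shown (exact permutation test over libraries, one-sided, p = 0.136, adjusted p = 0.136 over 3 ratios, where 0.00357 is the smallest p possible). RT replicate 3 stood highest, with an exact 95% counting interval of 2.67 to 3.19.

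Ratios with CriCCR3/4 moved far more. CriCR4A to CriCCR3/4 was 0.489, 0.900 and 0.786 in the RT replicates, 0.756, 0.265 and 0.121 in the DR, and 0.864, 1.03 and 0.911 in the SH. The segments differed before adjustment and not after it (exact permutation test, p = 0.0429, adjusted p = 0.129). CriCR4B to CriCCR3/4 was 1.18, 2.00 and 2.29 for RT, 1.89, 0.596 and 0.260 for DR, and 1.85, 2.16 and 1.96 for SH libraries (p = 0.111, adjusted p = 0.136, by the same exact test). Without DR replicate 1 both ratios passed, at adjusted p = 0.0214 for CriCR4A and 0.0482 for CriCR4B, within ranges over the libraries left out up to 0.254 and 0.332. This test compared all segments together and not the RT with the DR alone. Whether CriCCR3/4 differed less than the ACR4 copies between RT and DR was therefore not tested.

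Patterns were compared by Pearson's r of log2(CPM + 0.5) over the 9 libraries among the transcripts with a mean of at least 1 CPM, as a description of 3 segments with 3 libraries each. Of the 23293 others, CriCR4A ranked 8 in likeness to CriCR4B (r = 0.989), and CriCR4B ranked 22 in likeness to CriCR4A. CriCCR3/4 ranked 10105 for CriCR4B (r = 0.22) and 10474 for CriCR4A (r = 0.20). The ACR4 copies were thus near the top of each other's lists, and CriCCR3/4 near the middle.

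The transcript most like CriCR4B was transcript140089 (r = 0.997), with a narrower range, from 29.97 CPM in DR replicate 3 to 61.9 in RT replicate 3. For CriCR4A it was transcript53210 (r = 0.997), a low transcript at 1.56 to 3.60 CPM in the RT, 1.43 to 1.72 in the SH and 0.0403 to 0.331 in the DR. CriCCR3/4 was most like transcript40050 (r = 0.983), which had 21.3, 40.3 and 55.1 CPM in the DR replicates, 47.3 to 57.4 in the RT and 31.8 to 35.2 in the SH. These transcripts were chosen for their likeness over the same libraries, so that it is a description only. The table does not name these transcripts.

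Beside the receptor kinases, 22 transcripts of root cap, stem cell, cell cycle and ground tissue genes were listed. The numbers of CriWUL, CriWOXA and CriWOXB stand in the study's text, and the others were read from labels in its pictures by an earlier account of these data, those of ARF10/16 and PIN at low resolution and with less certainty. The list was chosen with results of these libraries known and is not independent evidence of a direction. Between RT and DR, 15 of the 22 were higher at the RT and 2 lower (29.9% and 27.9% of all transcripts). Between RT and SH, 15 were higher at the RT and 1 lower (29.9% and 28.2% of all transcripts). Between DR and SH, 5 were higher at the DR and 11 lower (27% and 30.8% of all transcripts). The list's median log2 fold changes were 2.00, 1.18 and -0.78, against 0.07, 0.11 and -0.08 over all transcripts.

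Of the 8 cell cycle transcripts, 6 CYCD and the RBR pair, 8 passed the test with a higher level at the RT than at the DR (29.9% of all transcripts) and 3 with a higher level at the RT than at the SH (29.9%). Between DR and SH, 7 passed as lower (30.8%) and 1 as higher at the DR (27%). The 1 higher at the DR was the CYCD transcript42446, also among the 3 higher at the RT than at the SH. It averaged 0.608 CPM in the DR and 0.0143 in the SH, where 2 libraries had no counts of it. RBR2 (transcript83572), a retinoblastoma-related repressor of the cell cycle, exceeded the DR level at the RT by 3.21 (log2, standard error 0.19) and the SH level by 1.14 (standard error 0.18), and its DR level was below the SH by a log2 fold change of -2.07. RBR1 (transcript30597), the other copy, exceeded the DR level by 0.63 and gave no call between RT and SH (-0.20, adjusted p = 0.229 from edgeR). With all 3 comparisons called, the segment order of the ACR4 copies was found in 4 of the 22, RBR2, SCL28, the CYCD transcript68372 and the PIN transcript50074, and in 4.68% of all transcripts. The most abundant CYCD, transcript68371, exceeded the DR level by 2.90 and gave no call between RT and SH (0.26, adjusted p = 0.305 from edgeR). CriWUL (transcript86941), in the clade whose Arabidopsis member WOX5 is limited by ACR4 signalling, exceeded the DR level by 3.51 (standard error 0.45). The excess over the SH level was 4.46 (standard error 0.50), and DR and SH gave no call (0.95, adjusted p = 0.168 from edgeR). CriWUL averaged only 0.264 CPM in the DR and 0.132 in the SH, so these fold changes rest on very low levels.

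ARF10/16 auxin response factors have a role in the Arabidopsis root cap. Of the 2 in the list, 1 was higher (transcript37933, 0.97) and 1 lower (transcript75969, -0.62) at the RT than at the DR, where 29.9% and 27.9% of all transcripts were. Both were higher at the RT than at the SH (29.9% of all transcripts), transcript37933 by 1.18 and transcript75969 by 3.13. PIN proteins export auxin from cells, and their 3 transcripts had 3 different patterns. transcript50074 had the RT above the DR by 2.81 and above the SH by 1.42 and the DR below the SH by a log2 fold change of -1.39. transcript38379 gave no call between RT and DR (0.02, standard error 0.18, adjusted p = 0.943 from edgeR) and exceeded the SH level by 4.43 at the RT and 4.41 at the DR. transcript89165 was highest in the SH, with a log2 fold change of -5.22 at the RT and -3.65 at the DR.

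**Figure D5:**
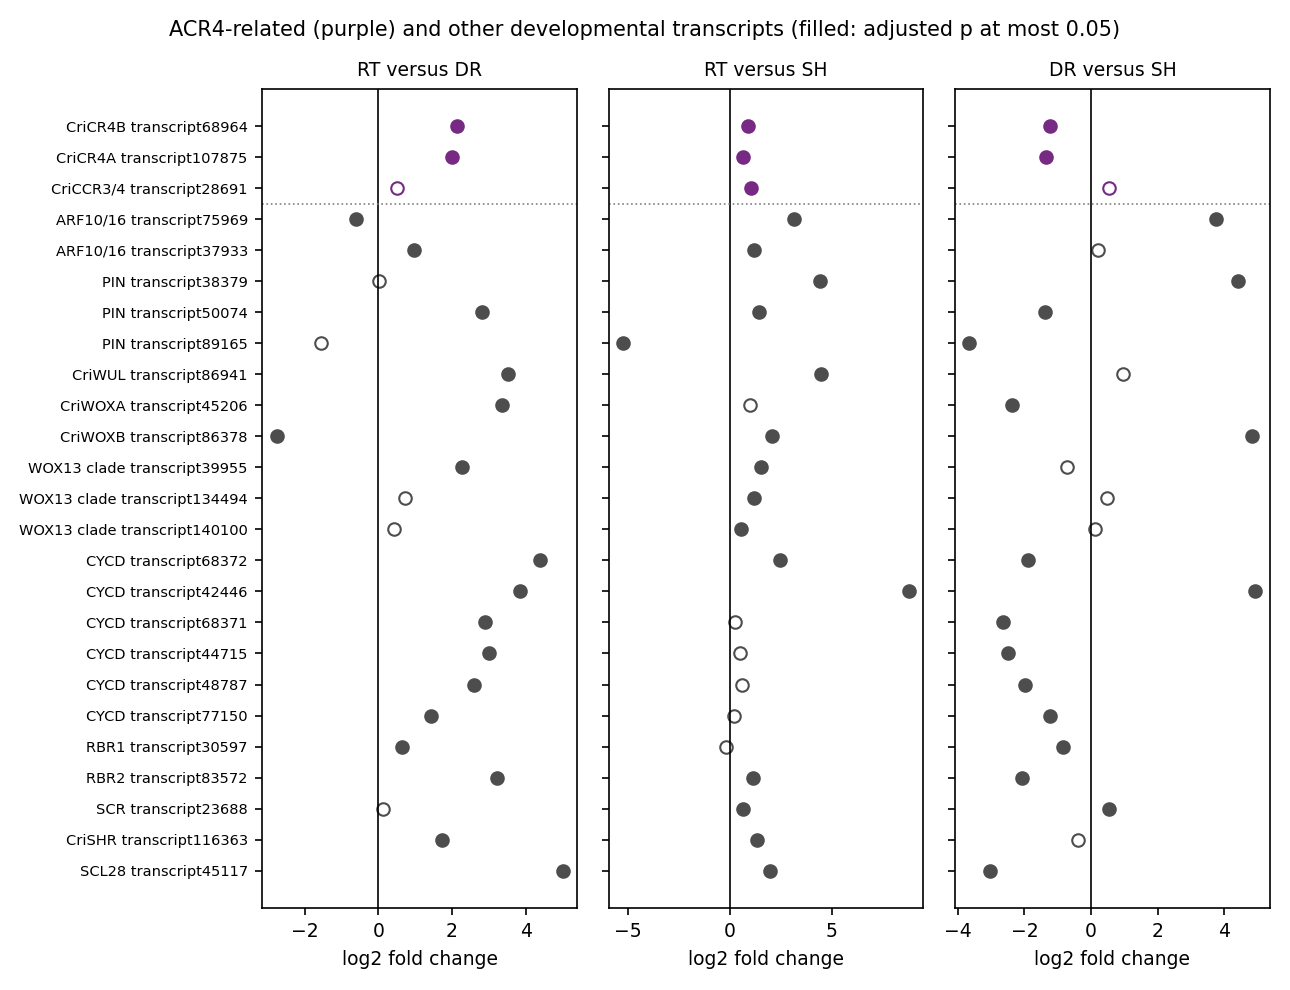
Log2 fold change (horizontal axes) of the receptor kinases (purple) and the 22 other transcripts (grey) in the 3 comparisons, filled where the adjusted p was at most 0.05. CriCR4A and CriCR4B lie on the same sides, all called, as 4 of the 22 (RBR2, SCL28, transcript68372 and transcript50074), and the fitted value of the CYCD transcript42446 against the SH, where 2 of 3 libraries had no counts, is not a bound.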

How the data were processed

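After trimming with Trimmomatic 0.32, the authors built one de novo assembly from all libraries (Trinity, reduced with CD-HIT and Compacta), obtained abundances with kallisto 0.44.0 and tximport, and removed low transcripts with edgeR. The table they deposited holds estimated counts per transcript, without normalization, although it is named for TPM, and between 17.1% and 19.1% of values per library have decimals. Here they were rounded to whole numbers.

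All 28952 transcripts and 9 libraries entered 1 model with a coefficient per segment and no covariate (R 4.3.3, edgeR 4.0.16, TMM factors, quasi-likelihood test, two-sided), with Benjamini-Hochberg adjustment over all transcripts and a threshold of 0.05. Standard errors were derived from each log2 fold change and its F statistic. The study used limma voom, which was an alternative here (limma 3.58.1), as were DESeq2 1.42.0, other scaling, filtering, prior count and moderation, fits of the compared segments only, the replicate number as a block and each library left out. The fit was tested on simulated data. Intervals for a library cover counting error only.

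The transcripts and lists were chosen with earlier results of these data known. Named were the 3 receptor kinases, the transcript most like each of them, and, of the related list, RBR2, CriWUL, the most abundant CYCD, the PIN and the ARF10/16 transcripts, with SCL28 and CYCD as markers. RBR1, transcript68372 and transcript42446 were named after their values were seen. None of the 3 numbers (0 of 3) occurs in the RefSeq gene table, and the receptor kinases are given without coordinates or sequences.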

Additional observations from a re-analysis of the deposited data

How the results depend on the processing

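Of 312 values under alternatives, 291 kept their direction and side of the threshold (for counts of transcripts, stayed within 1.5 times), 16 lost a call, 4 gained one and 1 changed direction. The differences of CriCR4A and CriCR4B, except CriCR4A between RT and SH, kept their calls under every alternative, as did the counts over all transcripts within 1.5 times. Replicate numbers were shared across segments, and neither the labels nor the study say whether same-numbered libraries came from the same plants. Of 9 same-numbered pairs of libraries, 2 had deviations that correlated above 0.1, and the range was -0.411 to 0.127. With only 3 libraries per segment around each mean, these correlations cannot show whether libraries were paired. With the replicate block, CriCR4A between RT and SH was 0.63 (adjusted p = 0.0602) and CriCCR3/4 between RT and SH 1.02 (adjusted p = 0.0529), both no longer past 0.05, and no other call of the 3 transcripts changed. CriCCR3/4 between RT and SH also lost its call with RLE factors (1.00) and with limma voom (1.02). With single libraries left out, CriCR4A between RT and SH ranged from 0.51 to 0.83, and CriCCR3/4 from 0.95 to 1.13 between RT and SH, from 0.12 to 1.04 between RT and DR and from -0.01 to 0.91 between DR and SH, where the value of -0.012, without DR replicate 3, is the change of direction. The adjusted p of the ratio to CriCCR3/4 ranged from 0.0482 to 0.332 for CriCR4B and from 0.0214 to 0.254 for CriCR4A. The causes were not tested. Library size alone moved the median of all transcripts by 0.42 between RT and SH and by 0.41 between DR and SH, and the share of higher among called transcripts from 51.4% to 67.8% and from 46.7% to 64.6%, while the ACR4 copies kept their directions. At 99 to 1935 counts per library, counting limited the receptor kinases less than the spread between root libraries did.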
